A study of Mus musculus with 2 samples.

Results

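The 10 genes described here belong to the endoplasmic reticulum (ER) stress response, measured in satellite cells (stem cells of skeletal muscle) from mice labelled as intact or knocked out for the clock gene Cipc. They are the ER chaperones and folding enzymes Hspa5, Hsp90b1, Calr and Pdia4, the degradation and co-chaperone genes Herpud1 and Dnajb9, the transcription factor Xbp1, and the stress sensors Atf6, Ern1 and Eif2ak3. Members were chosen by name for their function, with earlier results of these data known, and all 10 were found among the 16190 genes of the deposited count table. Each passed the filter on low counts (20 or more counts over both libraries, and a CPM, the count scaled to library size, of 1 or more in one of them), which 12874 genes passed.

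RNA came from the tibialis anterior muscle of C57BL/6 mice, as 1 library of genotype Cipc flox/flox (titled Cipc+/+, floxed alleles that serve as the control) and 1 of genotype Cipc scko (titled Cipc-/-). The driver of the deletion, the number, age and sex of the animals behind each library, and whether the cells were cultured are not stated by the labels. Paired values below are given for Cipc scko first. With 1 library per group there is no replicate check and no p-value. Every interval below covers counting error only, and each difference is one between these 2 libraries.

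Proteins of the secretory pathway fold in the ER. When unfolded proteins build up there, the sensors IRE1 (gene Ern1), PERK (gene Eif2ak3) and ATF6 start the unfolded protein response: IRE1 splices Xbp1 mRNA into the form that encodes an active transcription factor, PERK slows translation and favours ATF4, and ATF6 is cut to release a transcription factor. XBP1 and ATF6 are known to raise the genes of ER chaperones and of ER-associated degradation through the ER stress response element (ERSE) in their promoters. In muscle stem cells, PERK and the other arms are known for roles in survival and differentiation.

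The promoters that hold this element are shown first, since they mark which of the 10 genes carry the letters known from the pathway. Of the 10 genes, 9 had a RefSeq window on GRCm38.p6 of 250 bases before to 50 bases after the start. They were searched on both strands for ERSE (a CCAAT box with CCACG downstream of it after 9 bases of any kind), ERSE-II (the reverse complement ATTGG with the same 5 letters after 1 base of any kind), CCACG alone, the core TGACGTG, the C/EBP-ATF element TTGCATCA and the E-box CACGTG. The stretches below, shown because they hold ERSE, ERSE-II or TTGCATCA (in capitals), run 5′ to 3′ on the gene's strand. That of Hspa5 lies upstream of the RefSeq start but inside the GENCODE gene, whose start is placed farther upstream, and only the element and its flanks are shown. The others lie upstream of the GENCODE start too.
Hspa5 (chr2:34772020-34772048, plus strand): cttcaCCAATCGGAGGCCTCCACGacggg
Calr (chr8:84846935-84847181, minus strand): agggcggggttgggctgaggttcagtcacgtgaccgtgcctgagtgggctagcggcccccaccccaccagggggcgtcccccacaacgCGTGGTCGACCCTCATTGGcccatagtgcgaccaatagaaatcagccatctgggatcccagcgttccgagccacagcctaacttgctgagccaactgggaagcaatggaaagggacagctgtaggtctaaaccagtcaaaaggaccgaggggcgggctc
Hsp90b1 (chr10:86705510-86705694, minus strand): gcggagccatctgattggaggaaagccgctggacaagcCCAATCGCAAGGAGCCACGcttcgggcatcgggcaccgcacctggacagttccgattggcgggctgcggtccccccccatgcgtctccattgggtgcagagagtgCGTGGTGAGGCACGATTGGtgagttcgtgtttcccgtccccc
Herpud1 (chr8:94386179-94386428, plus strand): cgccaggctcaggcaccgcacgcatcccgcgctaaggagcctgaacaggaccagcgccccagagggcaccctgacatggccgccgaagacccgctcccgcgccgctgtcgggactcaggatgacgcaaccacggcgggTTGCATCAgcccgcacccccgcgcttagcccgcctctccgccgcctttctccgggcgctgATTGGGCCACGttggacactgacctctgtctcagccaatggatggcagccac

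ERSE was found in 3 of the 9 windows, those of Hspa5, Calr and Hsp90b1 (which held 2 matches), against 0.119% of all 32851 windows. Herpud1 held ERSE-II (0.0365% of all windows) and, upstream of it, TTGCATCA (0.895%). Hspa5 also held TGACGTG (2.01%). The E-box, the element bound by CLOCK and BMAL1, was found in 2 windows, those of Calr and Dnajb9 (7.15% of all windows). CCACG, which is a part of both ERSE forms and overlaps the E-box of Dnajb9, was found in 7 of the 9 and in 32.8% of all windows. These are matches of letters and not measured binding, and the letters of ERSE or ERSE-II were not in the windows of Pdia4, Dnajb9, Xbp1, Ern1 and Eif2ak3. ERSE and ERSE-II were searched for because they are known from genes of this pathway. Their presence here is therefore a description, and the shares beside it are no test of enrichment.

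Library totals were 16830168 counts for Cipc scko and 16145870 for the flox/flox control. Cipc had 594 and 1907 counts, a 3.04-fold lower level in Cipc scko. The labelled cell type was checked with 10 satellite cell markers: 8 were counted and present in both libraries, with a summed level of 3511 and 1971 CPM. Itga7 gave the largest part of that sum in both libraries (1358 and 1083 CPM). Next came Myod1 (1192 CPM) in Cipc scko and Cdh15 (414 CPM) in Cipc flox/flox. Of the 8 markers, Pax7 and Myod1 were higher in Cipc scko, and Cd34 was lower, with 3 and 427 counts. Pax7 had 998 and 43 counts, so its level in Cipc flox/flox was low, at 2.54 CPM. All 7 markers of differentiating muscle were higher in Cipc scko, with a summed level of 16054 against 37.8 CPM. Summed markers of smooth muscle and pericytes (3 of 5 counted) stood at 12584 and 543 CPM, mostly Acta2. Within that list Acta2 and Mcam were higher in Cipc scko and the pericyte marker Cspg4 was lower, with 7 and 491 counts. Markers of fibro-adipogenic cells (4 of 5) summed to 854 and 592 CPM, nearly all from Col1a1, which was higher, and Ly6a, while Pdgfra (11 and 147 counts) and Dcn (1 and 142) were lower. Endothelial markers (4 of 5) summed to 8.22 and 0.886 CPM, macrophage markers (3 of 5, with Cd68 lower and Csf1r higher) to 4.73 and 26.2 CPM, and Schwann cell markers (2 of 3) to 1.12 and 0.414 CPM, with Tek at 0 in Cipc scko and Pecam1 at 0 in Cipc flox/flox. Plasma cells are known for a strong unfolded protein response. Of the 4 of 5 plasma cell markers counted, Jchain, Mzb1 and Prdm1 were at 0 in Cipc flox/flox and at most at 1.87 CPM in Cipc scko. Sdc1 made up 614 of the 616 CPM of that list in Cipc scko and all 209 CPM in Cipc flox/flox. Xist had 4 and 3898 counts, and Y-linked Ddx3y 511 and 0, so sex-linked expression and genotype cannot be told apart. The part of any of these in the differences below was not tested, and in bulk RNA fewer cells of a type cannot be told apart from less RNA per cell.

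The 10 genes did not all differ in the same direction. Herpud1, Dnajb9, Pdia4 and Xbp1 were at least 2-fold higher in Cipc scko, Eif2ak3 was at least 2-fold lower, and the other 5 differed by less. A difference is counted here when it is at least 2-fold and its 95% counting interval excludes equality. That is 4 genes higher and 1 lower of 10, where the same rule called 21.2% of the filtered genes higher and 15.9% lower, or 37.2% in either direction. The median log2 ratio (Cipc scko over the flox/flox control) was 0.82 for the 10 genes and 0.01 for all genes. Counting intervals lay above equality for 6 of the 10 genes and below it for 3, with Atf6 the remaining one. Across all genes they lay above it for 41.5% and below it for 41.4%.

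**Figure D1:**
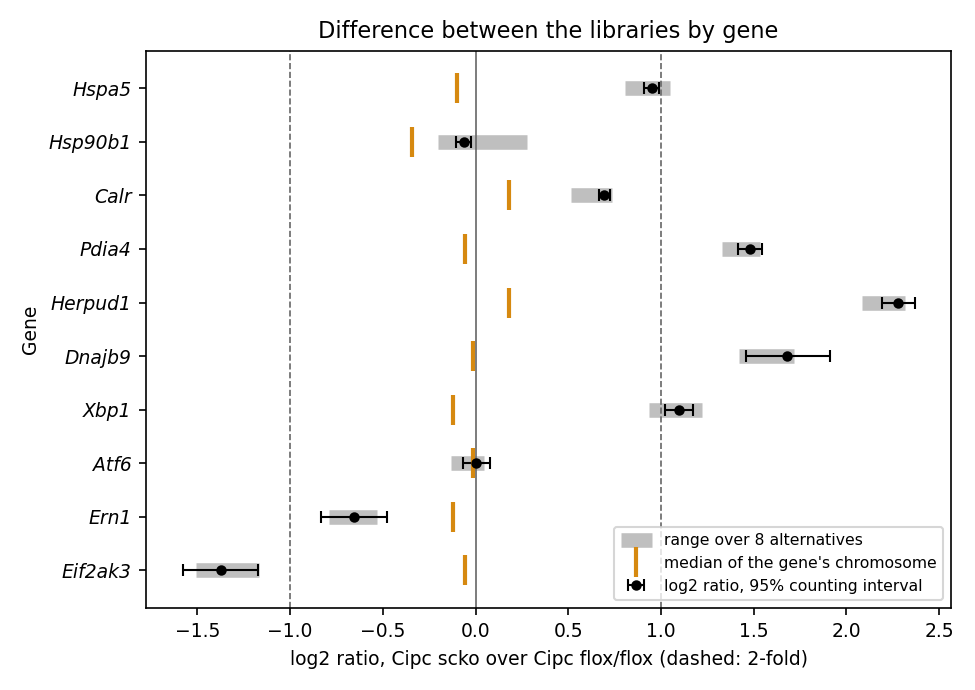
Log2 ratio (Cipc scko over flox/flox) for each of the 10 genes (points, with 95% counting intervals), the range of that ratio over 8 alternative scalings, priors and units (grey), and the median of all genes on the same chromosome (orange). Herpud1 lies farthest to the right at 2.28, Eif2ak3 farthest to the left at -1.37, and Hspa5 and Xbp1 sit beside the dashed 2-fold line.

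Among the 4 chaperones and folding enzymes, Pdia4 alone was at least 2-fold higher in Cipc scko, while Hspa5 and Calr had smaller ratios whose counting intervals lay above equality. Hspa5 (ENSMUSG00000026864, GRCm38 chr2:34771970-34777547) encodes BiP, the HSP70 of the ER lumen that also holds the sensors inactive. Its counts were 14889 and 8126, or 927 and 480 CPM. This was a 1.93-fold higher level (1.88 to 1.98), just short of 2-fold.

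Calr (ENSMUSG00000003814, chr8:84841850-84846934) encodes calreticulin, a lectin chaperone that also stores calcium. It had 26653 and 17350 counts, or 1660 and 1025 CPM, a log2 ratio of 0.70 (0.67 to 0.72). Per length it was the most abundant of the 10 genes in both libraries, at 373 and 253 FPKM (the deposited unit scaled by gene length and depth).

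Pdia4 (ENSMUSG00000025823, chr6:47796141-47813430) encodes ERp72, a disulfide isomerase. It had 7250 and 2738 counts, or 452 and 162 CPM, and was 2.79-fold higher in Cipc scko (2.67 to 2.92), the largest difference among these 4. Hsp90b1 (ENSMUSG00000020048, chr10:86690209-86705509) encodes GRP94, the HSP90 of the ER. It was almost level, with 9672 and 10662 counts, 602 and 630 CPM, and a log2 ratio of -0.06 (-0.10 to -0.02).

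The gap between Pdia4 and Hsp90b1 does not depend on how the libraries are scaled, since both are read in the same 2 libraries. Their log2 ratios differed by 1.55 (counting SE 0.04). In FPKM, Hsp90b1 stood at 1.98 times Pdia4 in Cipc flox/flox and at 0.678 times Pdia4 in Cipc scko. The same holds against Hspa5: Hsp90b1 stood at 169% of the Hspa5 FPKM in Cipc flox/flox and at 83.6% in Cipc scko. Hsp90b1 lies on chromosome 10, whose 623 genes past the filter had a median log2 ratio of -0.34. Against that median its difference was 0.28, so the sign of its small difference turned. Hsp90b1 overlaps 1810014B01Rik on the opposite strand (22 and 14 counts) and Gm15344 on its own (8 and 4 counts). Summed over the 4 genes, chaperone counts made up 0.347% of the Cipc scko library (Wilson 95% interval 0.345 to 0.350) and 0.241% of the Cipc flox/flox library (0.238 to 0.243).

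The ER-associated degradation gene and the co-chaperone differed most. Herpud1 (ENSMUSG00000031770, chr8:94386438-94395377) encodes HERP, an ER membrane protein that helps assemble the degradation complex. Its counts were 5739 and 1247, or 357 and 73.7 CPM. It was 4.85-fold higher (4.56 to 5.16), the highest ratio of the 10 genes, and it placed Herpud1 at the 88.7th percentile of filtered genes by ratio. In Cipc flox/flox its FPKM of 18.1 lay at the 78.6th percentile of genes past the filter, and in Cipc scko its FPKM of 79.8 lay at the 95.5th. Chromosome 8 had a median of 0.18, and against it Herpud1 still stood 2.10 higher. An annotated antisense gene, Gm15890, overlaps 535 bases of Herpud1, and no source used here says whether counting used strand. The same applies to Eif2ak3, which Gm43292 overlaps on the opposite strand over 2449 bases.

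Dnajb9 (ENSMUSG00000014905, chr12:44205559-44210326) encodes ERdj4, a J-domain partner of BiP that also restrains IRE1. It had 654 and 215 counts, or 40.7 and 12.7 CPM, a 3.20-fold higher level in Cipc scko (2.74 to 3.76). The 95% counting interval of the difference between its log2 ratio and that of Pdia4 included equality (-0.20 for Pdia4 minus Dnajb9, -0.43 to 0.03).

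Xbp1 (ENSMUSG00000020484, chr11:5520659-5525893) encodes the transcription factor whose mRNA IRE1 splices. It had 4514 and 2225 counts, or 281 and 131 CPM, a 2.14-fold higher level in Cipc scko (2.03 to 2.25). Counts per gene do not separate its spliced from its unspliced form. Xbp1 was below 2-fold when libraries were scaled by their totals (log2 ratio 0.96). Its ratio lay close to that of Hspa5, which was 0.15 lower on the log2 scale (-0.15 for Hspa5 minus Xbp1, 95% interval -0.23 to -0.06).

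None of the 3 sensor genes was at least 2-fold higher. Atf6 (ENSMUSG00000026663, chr1:170704674-170867771), the sensor that is itself a transcription factor, had 2929 and 3077 counts, or 182 CPM in both libraries. Its log2 ratio of 0.01 (-0.07 to 0.08) does not differ from equality beyond counting error, and its sign turned under 5 of 8 alternatives.

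Ern1 (ENSMUSG00000020715, chr11:106394650-106487852) encodes IRE1 alpha, the kinase and RNase. It had 415 and 689 counts, or 25.9 and 40.7 CPM, a log2 ratio of -0.65 (-0.83 to -0.48). Eif2ak3 (ENSMUSG00000031668, chr6:70844515-70905245) encodes the kinase PERK. It had 275 and 752 counts, or 17.1 and 44.4 CPM, and was 2.59-fold lower in Cipc scko (2.26 to 2.99). This placed it at the 10.6th percentile of filtered genes by ratio.

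The sensors therefore differed among themselves by more than counting error. Atf6 lay 1.38 above Eif2ak3 on the log2 ratio scale (1.17 to 1.59) and 0.66 above Ern1 (0.47 to 0.85), and Ern1 lay 0.72 above Eif2ak3 (0.45 to 0.98). Summed over the 3, sensor counts made up 0.0215% of the Cipc scko library (0.0208 to 0.0222) and 0.0280% of the Cipc flox/flox library (0.0272 to 0.0288). The log2 ratio of the summed counts was -0.24 for the sensors and 0.66 for the 4 chaperones. Most of the sensor sum came from Atf6, with 2929 of 3619 counts in Cipc scko and 3077 of 4518 in Cipc flox/flox. The sum therefore stands for none of the 3 sensors singly. Calr gave the largest part of the chaperone sum, with 26653 of 58464 and 17350 of 38876 counts. The widest gap was that of Herpud1 over Eif2ak3, with log2 ratios 3.65 apart (counting SE 0.11). Per length, Herpud1 stood at 3.08 times Eif2ak3 in Cipc flox/flox and at 38.8 times in Cipc scko.

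The order of levels per length also differed between the libraries. In Cipc flox/flox it ran, in FPKM, from Calr (253) over Hsp90b1 (122), Hspa5 (72.4), Pdia4 (61.8), Xbp1 (30.6), Atf6 (20.4), Herpud1 (18.1), Dnajb9 (7.14) and Eif2ak3 (5.86) to Ern1 (4.01). In Cipc scko Pdia4 (157) came next to Calr (373), followed by Hspa5 (127) and Hsp90b1 (106). Herpud1 (79.8) then stood above Xbp1 (59.6), Dnajb9 (20.8) above Atf6 (18.7), and Ern1 (2.32) above Eif2ak3 (2.06). Neighbours whose 95% counting intervals overlapped were Dnajb9 and Atf6 and also Ern1 and Eif2ak3 in Cipc scko, and Dnajb9 and Eif2ak3 in Cipc flox/flox. Variation between animals was not measured, so no further order can be tested.

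**Figure D2:**
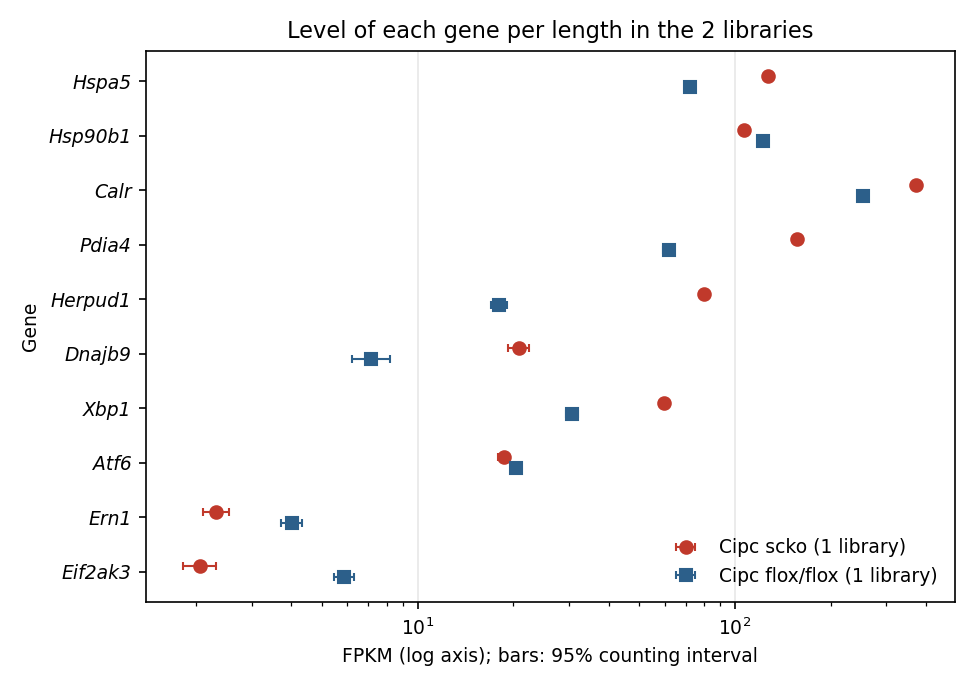
FPKM of each of the 10 genes (log axis) in the Cipc scko library (red circles) and the Cipc flox/flox library (blue squares), with 95% counting intervals. Chaperones lie to the right of the sensors Ern1 and Eif2ak3, and the gap between libraries is widest for Herpud1, at 79.8 against 18.1 FPKM.

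**Figure D3:**
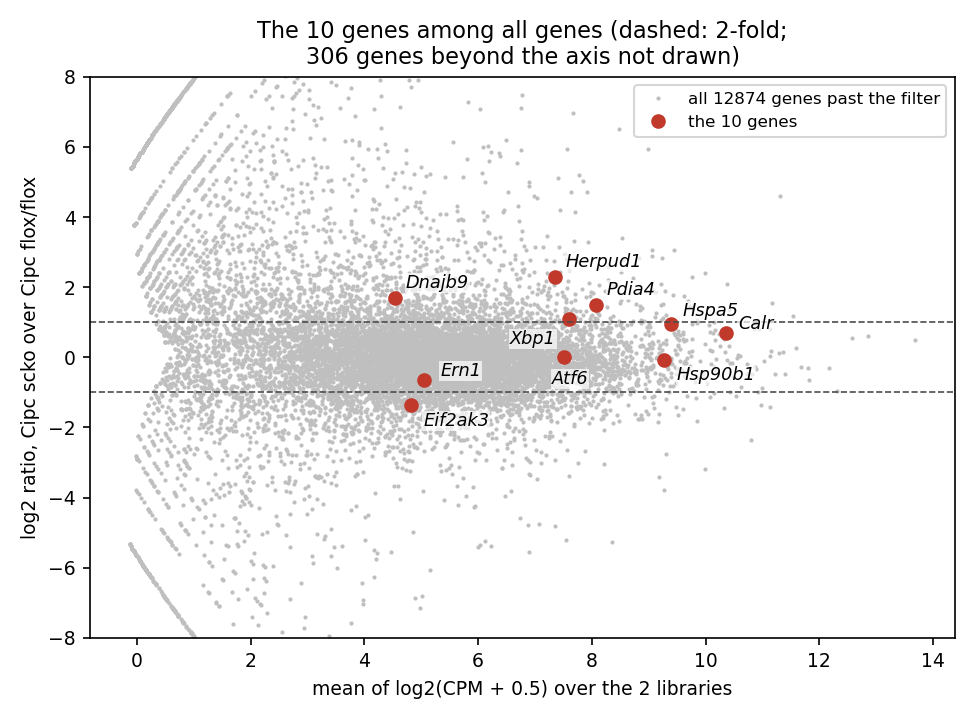
Log2 ratio (Cipc scko over flox/flox) against the mean of log2(CPM + 0.5) for the 12874 genes past the filter (grey), with the 10 genes in red and 306 genes beyond the axis not drawn. The 10 genes lie between -1.37 and 2.28, inside the spread of all genes.

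The rest of the pathway was described with 7 lists, also chosen with earlier results of these data known. Their counts stand beside the 21.2% of all filtered genes called higher and the 15.9% called lower. Of 22 further ER chaperones and co-chaperones, 6 were at least 2-fold higher in Cipc scko (27.3%) and 1 was lower (4.55%), a share of higher genes near that of all genes, with a median log2 ratio of 0.68. Highest was Serpinh1, the collagen chaperone HSP47, at 2760 and 646 CPM (log2 ratio 2.09, 2.06 to 2.13). Sdf2l1, a partner of BiP, stood at 60.6 and 15.3 CPM, a 3.95-fold higher level. The others were Sil1 (1.83), a nucleotide exchange factor of BiP, the prolyl isomerases Fkbp9 (1.43) and Fkbp7 (1.13), and Hyou1 (1.39), an HSP70-like partner of BiP. The prolyl isomerase Fkbp2 was the one lower, at 28.2 and 62.7 CPM (-1.16), and its relative Fkbp11 stood at -0.60. Fkbp11 lies on chromosome 15, whose median was -0.68, and against that median it stood at 0.07.

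Glycoprotein folding and oxidative folding genes gave few differences of that size. Of 10 glycoprotein folding genes 1 was higher and 0 lower (median 0.66): Ganab, the catalytic subunit of glucosidase II, at 362 and 176 CPM (1.04). With totals, reduced totals or FPKM the count of higher genes in this list was 0. Prkcsh, its other subunit, stood at 0.87. Canx, the membrane-bound relative of calreticulin, went the other way at 350 and 562 CPM (-0.68, -0.73 to -0.64), beside 0.70 for Calr, and Uggt2 stood at -0.84. Of 14 oxidative folding genes 1 was higher and 0 lower (median 0.05): the sulfhydryl oxidase Qsox1, at 293 and 127 CPM (1.20). With FPKM and a pseudocount of 1 the count of higher genes in the oxidative folding list was 0. Pdia6, a relative of Pdia4, stood at 0.75, the thioredoxin-like Tmx1 at -0.74 and the peroxiredoxin Prdx4 at -0.62.

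Few ER-associated degradation and translocation genes differed by 2-fold. Of the 24 genes of the degradation list 2 were higher (8.33%, beside 21.2% of all genes) and 0 lower (median -0.06, also with genes at 0 set to their bound). Both were at 0 counts in Cipc flox/flox: the derlin gene Derl3 with 142 counts in Cipc scko, at least 49.9-fold higher against a floor of 3 counts per library, and Sel1l3 with 23 counts, at least 8.08-fold. The floor leaves out the counting error of the Cipc scko counts, and the 95% counting intervals of these ratios start lower, at 40.1-fold and 6.06-fold. With a filter of 5 CPM, or with FPKM and a pseudocount of 1, 1 gene of the degradation list was higher. Edem1, which marks misfolded glycoproteins for degradation, stood at 94.7 and 49.5 CPM (0.94), Derl1 at -0.56 and Ubxn4 at -0.86. Against the median of its chromosome 15 (-0.68), Derl1 stood at 0.12, so its sign turned. The ubiquitin ligase gene Syvn1 and its partner Sel1l, whose products work in the complex that HERP joins, stood at 0.15 and 0.18. Of the 18 genes counted from the translocation list (of 19 listed) 0 were higher and 0 lower (median 0.04), from Sec11c (-0.93) and Sec63 (-0.79) to Ssr4 (0.74) and Sec24d (0.91). Sec24d encodes a coat subunit for export from the ER and is not itself a translocation gene. With totals, reduced totals or FPKM and a pseudocount of 0.1, 1 gene of this list was lower. Against chromosome medians 1 was higher, Sec24d (1.03).

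Of the other sensors and transducers, 2 of the 15 past the filter (of 18 listed) were higher (13.3%, beside 21.2% of all genes) and 0 lower, with a median of 0.11. Counting intervals lay above equality for 6 of them and below it for 2. Creb3l1, an ATF6-like membrane-bound transcription factor known as OASIS, stood at 417 and 47.4 CPM, an 8.80-fold higher level (8.18 to 9.48), and Creb3l4 had 25 and 6 counts. With a filter of 5 CPM, or with FPKM and a pseudocount of 1, 1 gene of this list was higher. Ficd, which modifies BiP, stood at 0.62, Tmbim6 at -0.20 and the kinase gene Eif2ak4 (GCN2) at -0.45. Against the median of its chromosome 15 (-0.68), Tmbim6 stood at 0.48. Atf6b, the paralogue of Atf6, was as level as Atf6 itself (-0.04, -0.16 to 0.08). Rtcb, the ligase that joins spliced Xbp1, was level too (0.00, -0.06 to 0.06). The medians of the oxidative folding, translocation and other sensor lists turned below 0 when libraries were scaled by totals (-0.09, -0.10 and -0.03), a scaling that moved the median of all genes to -0.13. That of the degradation list turned above 0 (0.02) when chromosome medians were subtracted.

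Downstream of PERK, 8 of 16 genes of the ATF4 arm and recovery list were at least 2-fold higher in Cipc scko (50%, beside 21.2% of all genes) and 0 lower (beside 15.9%), with a median of 1.10. Eif2ak3 itself was lower. Trib3, a pseudokinase induced by ATF4, stood at 177 and 44.7 CPM (1.98, 1.87 to 2.10), and Nupr1, a stress-induced nuclear protein, at 152 and 39.2 CPM, a 3.88-fold higher level. The others were Bbc3 (1.79), Cebpb (1.72), Asns (1.64), Sesn2 (1.56), Cebpg (1.40) and Chac1 (1.22). Atf4 stood at 1292 and 659 CPM (0.97), and Ddit3, which encodes the stress factor CHOP, at 67.0 and 51.6 CPM (0.38, 0.25 to 0.51). Against the median of chromosome 15 (-0.68) Atf4 stood at 1.65, and against that of chromosome 7 (0.40) Cebpg stood at 0.99. Eif2s1, which encodes the translation factor subunit that PERK phosphorylates, stood at -0.62 and the death receptor gene Tnfrsf10b at -0.83. Atf3 (298 and 447 counts) stood at -0.51 (-0.73 to -0.29) and Ero1l at -0.28 (-0.39 to -0.16). Counting intervals lay above equality for 12 of the 16 genes of this list and below it for 4. Counts do not measure the activity of PERK or of the other kinases known to raise ATF4, and the cause of these differences was not tested.

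**Figure D4:**
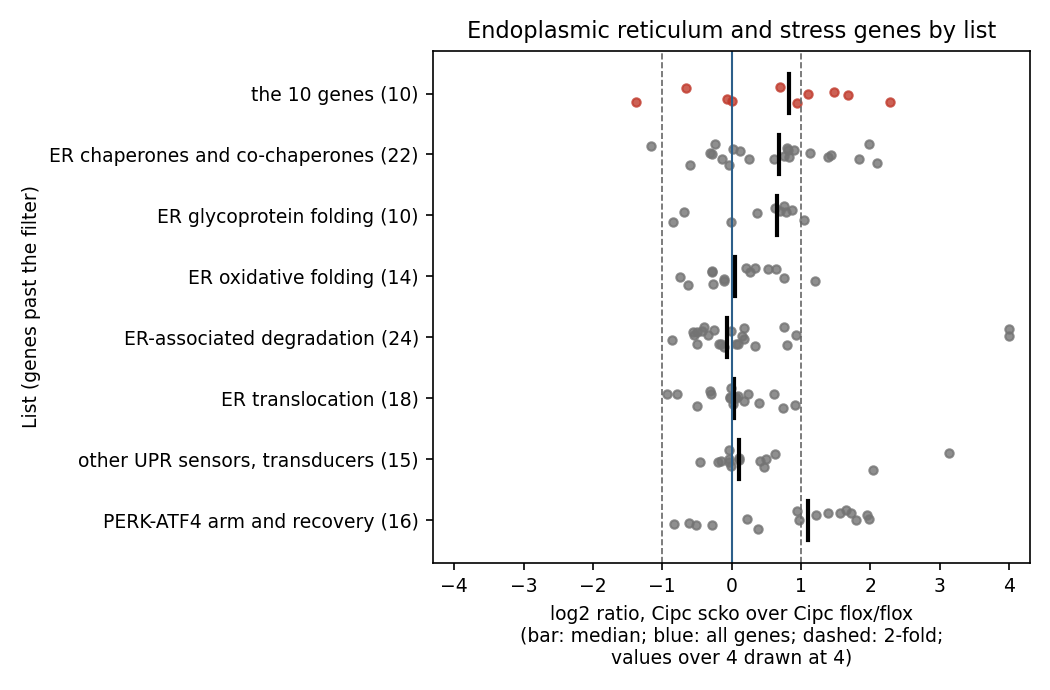
Log2 ratio (Cipc scko over flox/flox) of each gene past the filter in the 10 genes (red) and in 7 lists of the same pathway (grey), with medians as black bars and values over 4 drawn at 4. Medians lie near 1 for the ATF4 arm (1.10) and near 0 for degradation (-0.06) and translocation (0.04).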

How the data were processed

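Total RNA was sequenced on an Illumina system after preparation with a VAHTS Universal kit, per the labels' protocols. StringTie 1.3.0, HISAT2 2.0.4, CASAVA and the build GRCm38 appear, without roles, in the submitters' processing notes. The counter, the annotation and the use of strand: not given in the sources used here. The deposited tables hold raw counts of whole reads or fragments for each Ensembl identifier and FPKM values. The deposited FPKM are the counts rescaled (ratio of ratios 0.9996 to 1.0002 over 13719 genes) and served for levels between genes and as an alternative.

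Symbols and positions came from GENCODE vM21 (16116 of 16190 identifiers matched) and promoters from RefSeq on GRCm38.p6. Counts were scaled to CPM with TMM factors (edgeR 4.0.16, R 4.3.3). Log2 ratios used a prior count of 0.5, and intervals were exact Clopper-Pearson at 95%. The labels name no molecular identifiers, and intervals cover counting error only. FPKM intervals were exact Poisson. BLAST+ 2.17.0 found no other transcript of at least 95% identity over 80% of the shorter one. No p-value was computed, since neither group has a second library.

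The members and lists were chosen with earlier results of these data known. Named were the members, Cipc, and the 2 highest and 2 lowest genes per list among those that reached 5 CPM in a library. Other named genes were chosen after their values were seen. Alternatives were scaling by totals, by DESeq2 1.42.0 size factors, by upper quartiles or by reduced totals, a prior of 5, FPKM, chromosome medians, other filters and other fold limits. Protein sequences were not used here.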

Additional observations from a re-analysis of the deposited data

How the results depend on the processing

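Calr, Pdia4, Herpud1, Dnajb9, Ern1 and Eif2ak3 kept their direction and their side of the 2-fold rule under all 8 alternatives run on each gene. Xbp1 went below 2-fold with totals (0.96) and with FPKM (0.96 and 0.94 for pseudocounts of 0.1 and 1), and Hspa5 went above it against its chromosome median (1.05). Signs turned for 2 genes near equality. Hsp90b1 stood at 0.28 against its chromosome median. Atf6 stood at -0.13 with totals, -0.017 with DESeq2 size factors, -0.083 with totals reduced by leaving out mitochondrial genes and the 10 genes with most counts, and -0.13 and -0.12 with FPKM. The median of the 10 genes was 0.69 with totals, 0.73 with reduced totals, and 0.69 and 0.68 with FPKM. A fold limit of 1.5 called 6 of the 10 higher and 2 lower, while at 4-fold 1 was higher and 0 were lower, fewer by construction. Over all genes, 2732 higher and 2053 lower became 3739 and 3318 at 1.5-fold, 1608 and 860 at 4-fold, and 1479 and 1502 with FPKM and a pseudocount of 1.

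No paired analysis was possible because each group has 1 library and the labels give no replicate numbers. Leaving out a library was impossible for the same reason. Summing with near-identical copies gave no value, since no copy was found. Depth was not what limits these results for most of the 10 genes, whose intervals had a median half-width of 0.07 on the log2 scale, while variation between animals was not measured.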

Other observations

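Genes outside the 10 that hold the same promoter letters were listed after the values had been seen, and they are given as a description. ERSE was found in 14 further genes past the filter, with a median log2 ratio of 0.45. By the 2-fold rule 6 of them were higher (42.9%) and 1 lower (7.14%), beside 21.2% and 15.9% of all genes past the filter. Of the 6, Spats2l, Derl3 and Gm20560 were at 0 counts in Cipc flox/flox, so they passed the filter through Cipc scko alone. Those with known ER roles differed among themselves: Derl3 was higher, while Pdia6 stood at 0.75, Canx at -0.68, Syvn1 at 0.15, Creld2 at 0.12, Dnajc3 at -0.28 and the mannosyltransferase gene Alg12 at -0.51. Creld2 and Alg12 lie on chromosome 15, whose median was -0.68. ERSE-II was found in 7 further genes, with 0 higher, 1 lower (14.3%) and a median of 0.13, so Herpud1 (2.28) stood above each of them. The highest of these 7 was Dnajb11, a co-chaperone of BiP, at 0.76.

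TTGCATCA was found in 69 further genes, of which 23 were higher (33.3%) and 5 lower (7.25%), with a median of 0.45. All genes past the filter gave 21.2% and 15.9%. Only the 10 genes were left out of these 69, and genes of the ATF4 list were not, so the 2 shares are not separate results. The E-box was found in 1175 further genes, of which 193 were higher (16.4%) and 208 lower (17.7%), with a median of -0.12. Calr and Dnajb9, the E-box genes among the 10, stood at 0.70 and 1.68.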
